A study of Mus musculus with 4 samples.

Results

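Propionylated lysine 23 of histone H3 (H3K23pr) was read, as called peaks, over 41 mouse genes of glucose metabolism, glycogen metabolism and insulin signalling. The genes were chosen by symbol, and all 41 were found among the 21887 protein-coding genes of the RefSeq table (GRCm38.p6). Chromatin immunoprecipitation sequencing had been done on liver of male C57BL/6 mice. The KO library was from RPN11 hepatocyte-specific knockout liver. The WT library, so called after its title, was from RPN11 flox/flox liver, not from mice without floxed alleles. Each genotype had 1 immunoprecipitate (IP) and 1 input, so there is no replicate check and no test of genotype. RPN11, encoded by Psmd14, removes ubiquitin from substrates at the lid of the 26S proteasome. The Cre driver, age, diet and number of animals per library are not given in the sources used here, and cells other than hepatocytes keep the gene in KO liver.

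Histone propionylation joins a propionyl group from propionyl-CoA to lysine and, like acetylation, is mostly described at active chromatin. Liver takes up glucose after a meal and stores it as glycogen under insulin, and releases glucose by glycogen breakdown and gluconeogenesis under glucagon. Insulin acts through its receptor, IRS adaptors, PI3K and AKT, which hold back FOXO factors and favour mTORC1, while AMPK restrains mTORC1 when energy is low. The list was read in 4 classes. These were 9 genes of sugar entry, glycolysis and its control at pyruvate dehydrogenase (called glycolysis below), 4 of gluconeogenesis, 6 of glycogen and 22 of signalling.

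A gene was given every peak that overlapped it or the 5 kb on either side. The caller kept 15468265 IP fragments in KO and 13615838 in WT, and the deposited lists held 41907 KO peaks and 54397 WT peaks. The mean IP fragment was 71 bp in KO and 97 bp in WT. The fragment number of a peak is the number of IP fragments at its summit, with a minimum of 4 in either list, and the fold is the authors' own, against the local background from the input. Peaks over Psmd14 itself numbered 10 in KO and 7 in WT, which does not check the knockout. Of the hepatocyte markers Alb, Apoa1, Ttr, Cyp2e1 and Hnf4a, 4 had a peak in KO and 3 in WT, and of 20 markers of other liver cells 5 had a peak in KO and 13 in WT, where 33.3% of all protein-coding genes had a KO peak and 47.7% a WT peak. Peaks of a histone mark measure no expression, so the tissue could not be checked in this way.

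The start sites of the glucose genes carried almost no peaks. Of the 41 genes, 37 had a promoter entry in RefSeq, with 48 promoter windows from 250 bp before to 50 bp after a start site. None of the 48 windows held a KO peak or a WT peak. Over the 17492 protein-coding genes with an entry, 0.217% had a KO peak and 0.515% a WT peak in such a window, so 0 is near the background here. Within 2 kb of a start site, 1 of the 37 genes had a KO peak (background 4.59%) and 1 had a WT peak (background 8.22%). The KO gene was Slc2a2, which encodes GLUT2, the main glucose transporter of hepatocytes. Its peak, at chr3:28698679-28698769, lay 797 bp downstream of the start site and had 4 fragments, the lowest number the list holds. The WT gene was Pik3ca, which encodes the p110 alpha catalytic subunit of PI3K. Its peak, at chr3:32395677-32395862, lay 1245 bp upstream of the start site and had 9 fragments and a fold of 5.91.

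The 250 bases before the start sites of these genes are shown because their peaks came nearest to a start site, followed by the promoters of G6pc, Pck1 and Igfbp1. These last encode glucose-6-phosphatase, PEPCK and an IGF binding protein of the fasted liver, are the textbook targets of insulin repression, and had no peak in either list. The sequences are from RefSeq (GRCm38.p6) on the plus strand, from chr3:28697653-28697902, chr3:32396815-32397064, chr11:101367466-101367715, chr2:173152823-173153072 and chr11:7197537-7197786. Capitals mark matches, on either strand, to the insulin response core TNTTTTG, the cyclic AMP response core ACGTCA, the FOXO motif TGTTTAC and TATAAA.
Slc2a2: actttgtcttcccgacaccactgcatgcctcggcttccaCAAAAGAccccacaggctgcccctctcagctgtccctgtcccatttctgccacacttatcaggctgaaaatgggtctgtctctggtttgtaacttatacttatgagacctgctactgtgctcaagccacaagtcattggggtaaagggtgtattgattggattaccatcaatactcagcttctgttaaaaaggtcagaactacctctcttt
Pik3ca: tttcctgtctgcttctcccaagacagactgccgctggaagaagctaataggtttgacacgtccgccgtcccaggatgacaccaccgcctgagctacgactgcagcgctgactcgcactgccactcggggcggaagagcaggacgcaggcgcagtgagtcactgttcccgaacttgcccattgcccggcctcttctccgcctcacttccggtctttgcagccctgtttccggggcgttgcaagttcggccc
G6pc: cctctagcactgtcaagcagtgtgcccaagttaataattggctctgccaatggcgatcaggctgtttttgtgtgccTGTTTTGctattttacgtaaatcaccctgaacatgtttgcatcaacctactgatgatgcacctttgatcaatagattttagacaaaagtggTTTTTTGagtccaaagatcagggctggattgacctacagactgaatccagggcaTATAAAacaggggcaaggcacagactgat
Pck1: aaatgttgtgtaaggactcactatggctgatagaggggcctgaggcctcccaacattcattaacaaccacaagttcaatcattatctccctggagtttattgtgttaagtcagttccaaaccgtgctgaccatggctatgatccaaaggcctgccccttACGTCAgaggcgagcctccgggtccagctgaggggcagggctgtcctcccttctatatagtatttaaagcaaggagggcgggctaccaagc
Igfbp1: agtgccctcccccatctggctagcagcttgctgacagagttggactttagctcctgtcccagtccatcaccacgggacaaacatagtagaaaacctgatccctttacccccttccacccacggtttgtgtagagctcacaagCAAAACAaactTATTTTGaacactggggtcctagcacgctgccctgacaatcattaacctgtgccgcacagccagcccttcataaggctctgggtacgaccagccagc
The insulin response core matched at 2 places each in G6pc and Igfbp1 and at 1 place in Slc2a2, the cyclic AMP core at 1 place in Pck1, and no searched motif in Pik3ca. The core TNTTTTG was in 16.9% of the 32851 promoter entries, ACGTCA in 6.47%, TGTTTAC in 3.17% and TATAAA in 12.4%. Among the 48 promoters of the list, 9 held the insulin response core, 2 the cyclic AMP core, 1 the FOXO motif and 3 TATAAA. The letter matches describe the windows and do not show binding. Crtc2, Gys2, Insr and Ppp1r3b had no promoter entry.

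Peaks over the list were found away from the start sites, mostly inside long genes. In KO, 16 of the 41 genes had at least 1 peak (39.0%, exact 95% binomial interval 24.2 to 55.5), against a background of 33.3% of all protein-coding genes. In WT, 20 of 41 had a peak (48.8%, 32.9 to 64.9), against 47.7%. Peaks in both lists were found over 13 genes (31.7%, background 24.3%) and in neither list over 18 (43.9%, background 43.3%). All of these shares were near their background. That background is not matched for length: the median window was 46.9 kb over the list, against 27.2 kb over all protein-coding genes. The windows of the 41 genes held 61 KO peaks and 57 WT peaks. Of these, 55 KO peaks and 51 WT peaks had their summit inside the gene. The window of a long gene is mostly the gene itself, and no background was computed for these 2 numbers.

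**Figure D1:**
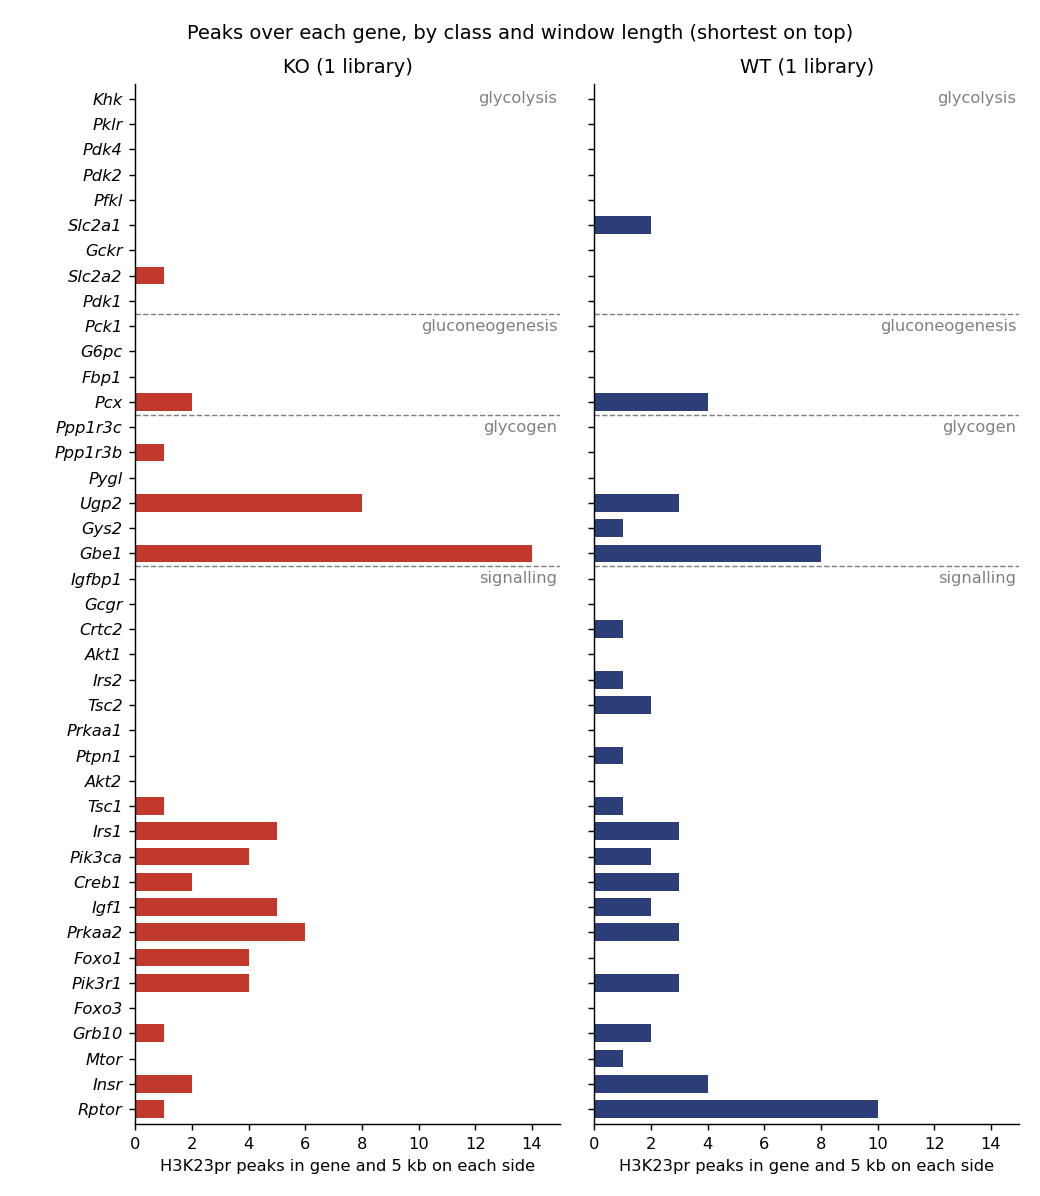
Number of H3K23pr peaks over each of the 41 genes and 5 kb on each side, in the KO library (left) and the WT library (right), with genes grouped by class and ordered by window length. Gbe1 had the most KO peaks, 14, Rptor the most WT peaks, 10, and 18 genes had none in either list.

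Gene length went with peak number, over the list as over all protein-coding genes. Of all genes with windows up to 25 kb, 12.9% had a KO peak and 24.3% a WT peak. With windows of 100 to 1000 kb these shares were 83.0% and 94.1%. In the list, 1 of 10 genes up to 25 kb had a KO peak and 1 a WT peak. From 25 to 50 kb, 1 of 12 had a KO peak (all genes 31.9%) and 3 a WT peak (50.4%). From 50 to 75 kb, 3 of 6 had a KO peak (52.4%) and 5 a WT peak (72.0%). From 75 to 100 kb, 6 of 6 had a KO peak (65.3%) and 5 a WT peak (84.8%). Over 100 kb, 5 of 7 had a KO peak and 6 a WT peak. By gene length, 24 of the 41 genes were under 50 kb. Of the 18 genes without any peak, 17 were under 50 kb long, and 16 of the 17 genes of 50 kb or more had a peak in at least 1 list. The exception was Foxo3, a FOXO transcription factor gene of 94.9 kb. Among its 679 genes of like length (window within 10%), 68.2% had a KO peak and 87.5% a WT peak. Adding up the mean peak number of genes of like length over the 41 genes gave 47.2 peaks for KO and 64.6 for WT, where 61 KO peaks and 57 WT peaks were called. The number of genes with a peak was 16 in KO where like length gave 18.3, and 20 in WT where it gave 25.2. Gbe1 (14 KO peaks) and Ugp2 (8) had the most KO peaks. Without these, a choice made after seeing the data, the other 39 genes had 39 KO peaks where like length gave 41.2, and 46 WT peaks where it gave 56.8. Leaving out the genes with the most KO peaks lowers the KO number in any case, so it does not show where the higher number came from. The 6 genes with windows of 75 to 100 kb included neither Gbe1 nor Ugp2. They had 25 KO peaks where like length gave 10.1, and 13 WT peaks where it gave 13.7. The 7 genes with windows over 100 kb, Gbe1 and Rptor among them, had 20 KO peaks against 21.8 and 29 WT peaks against 28.4. Like-length sums were made for these 2 window groups only, a choice made after seeing the data. The 12 genes with windows of 25 to 50 kb averaged 0.0833 KO and 0.417 WT peaks, against 0.510 and 0.778 for all genes. Up to 25 kb, 10 genes held 1 KO peak and 1 WT peak, where all genes averaged 0.159 and 0.295 per gene. With 50 to 75 kb, 6 genes including Ugp2 averaged 2.33 KO peaks against 1.11. They held 9 WT peaks, where all genes averaged 1.46 per gene.

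**Figure D2:**
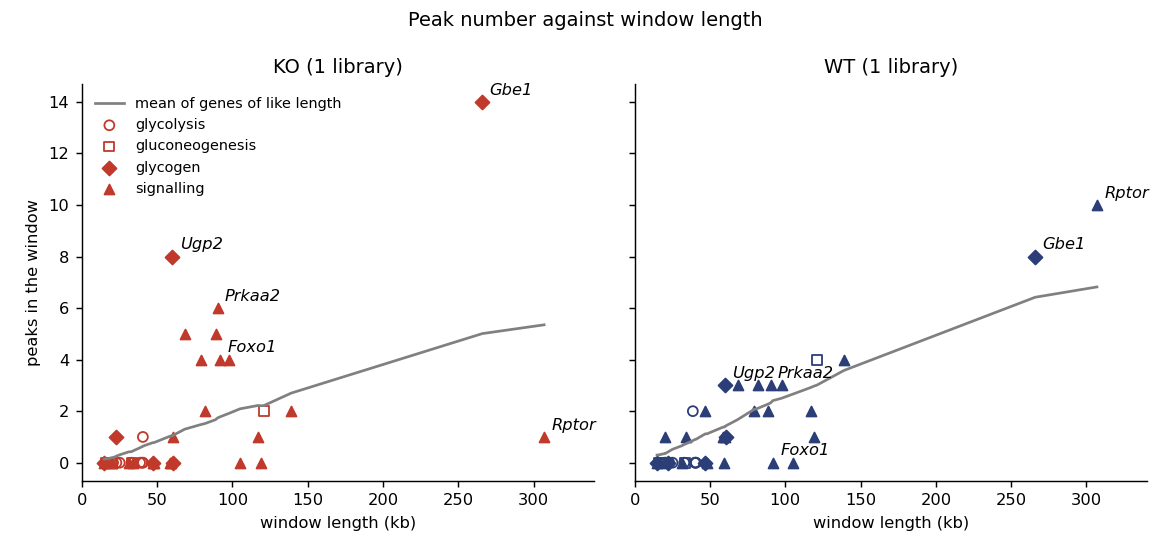
Peaks in the window against window length in kb for KO (left) and WT (right), with 1 symbol per gene by class and a grey line for the mean of protein-coding genes of like length. In KO, Ugp2 (8 peaks) and Gbe1 (14) stood above the line and Rptor (1) below it, while in WT Rptor (10) stood above it and Foxo1 (0) below it.

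Glycolysis genes held few peaks. Over 281 kb of windows there was 1 KO peak and there were 2 WT peaks, or 3.56 per Mb in KO (exact 95% Poisson interval 0.0901 to 19.8) and 7.11 per Mb in WT (0.862 to 25.7). All protein-coding gene windows together held 17.3 KO peaks and 22.9 WT peaks per Mb. The WT interval and the KO interval both include this background, which is not matched for length. Like length gave 3.87 KO peaks and 5.97 WT peaks for the 9 genes. It gave 2.50 genes with a KO peak and 4.05 with a WT peak, where 1 was found in each list. The KO peak was that of Slc2a2. Both WT peaks were in Slc2a1, which encodes the transporter GLUT1, with 5 fragments at chr4:119113364-119113520 and 6 at chr4:119135597-119135701. Neither library had a peak over Gckr, Khk (fructokinase), Pfkl (liver phosphofructokinase), Pklr (liver pyruvate kinase) or the pyruvate dehydrogenase kinase genes Pdk1, Pdk2 and Pdk4. Windows of these 7 genes were short, and their peak number of 0 was at percentiles 31.0 to 42.4 in KO and 21.5 to 35.6 in WT among genes of like length.

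Gluconeogenesis genes had peaks in Pcx and in no other. Pcx encodes pyruvate carboxylase, the mitochondrial first step, and Pck1, Fbp1 and G6pc encode the later steps. Pcx (chromosome 19, 4510472 to 4621752) had 2 KO peaks of 5 fragments each, against 4 WT peaks of 5, 6, 7 and 10 fragments. The WT peak of 10 fragments, at chr19:4547207-4547499 with a fold of 6.18, was the highest of all 118 peaks over the list and ranked 157 of 54397 WT peaks by caller p. A KO peak of 5 fragments at chr19:4546914-4546985 had its summit 278 bp away without overlap. The WT peak of 6 fragments lay 3107 bp past the gene, inside Rce1. Among 596 genes of like length, Pcx was at percentile 58.2 in KO and 72.2 in WT.

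Glycogen genes held the densest KO peaks. Their windows, 471 kb in all, held 23 KO peaks and 12 WT peaks, or 48.9 per Mb in KO (31.0 to 73.3) and 25.5 per Mb in WT (13.2 to 44.5). Like length gave 8.29 KO peaks and 11.1 WT peaks for the 6 genes. Gbe1 and Ugp2 held nearly all of them. Without both, a split chosen after seeing the data, the other 4 genes had 1 KO peak and 1 WT peak, or 6.91 per Mb each (0.175 to 38.5).

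Gbe1 encodes the branching enzyme of glycogen, and Ugp2 makes UDP-glucose, the building block of glycogen. Ugp2 (chromosome 11, 21321126 to 21371267) had 8 KO peaks of 4 to 7 fragments, against 3 WT peaks of 5, 7 and 9 fragments. Set among 1033 genes of like length, this was percentile 99.7 in KO, with 4 genes at or above it, and percentile 86.9 in WT. Of the KO peaks 7 were inside the gene, the strongest with 7 fragments and a fold of 5.10 at chr11:21329930-21330083. The last KO peak, of 6 fragments, lay 2432 bp upstream of the start site. The strongest WT peak, with 9 fragments and a fold of 5.22, was at chr11:21340505-21340788. No KO peak overlapped a WT peak in Ugp2, and the nearest pair of summits was 351 bp apart. As a share of the peaks of both lists, KO had 72.7% in Ugp2 (39.0 to 94.0), against 43.5% over the whole lists, which the interval includes.

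Gbe1 (chromosome 16, 70313949 to 70569720) had 14 KO peaks of 4 to 6 fragments, against 8 WT peaks of 4 to 6 fragments. Against 206 genes of similar window length it stood at percentile 95.6 in KO, with 11 genes at or above it, and at 68.0 in WT. The genotypes shared 1 site there, at chr16:70482662-70482745 in KO with 5 fragments and chr16:70482654-70482766 in WT with 4. The other glycogen genes had at most 1 peak. Ppp1r3b, which encodes the liver subunit that targets protein phosphatase 1 to glycogen, had a KO peak of 5 fragments and no WT peak, and Gys2, the liver glycogen synthase gene, had a WT peak of 5 fragments and no KO peak. Pygl (liver glycogen phosphorylase) and Ppp1r3c (another glycogen-targeting subunit) had none.

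**Figure D3:**
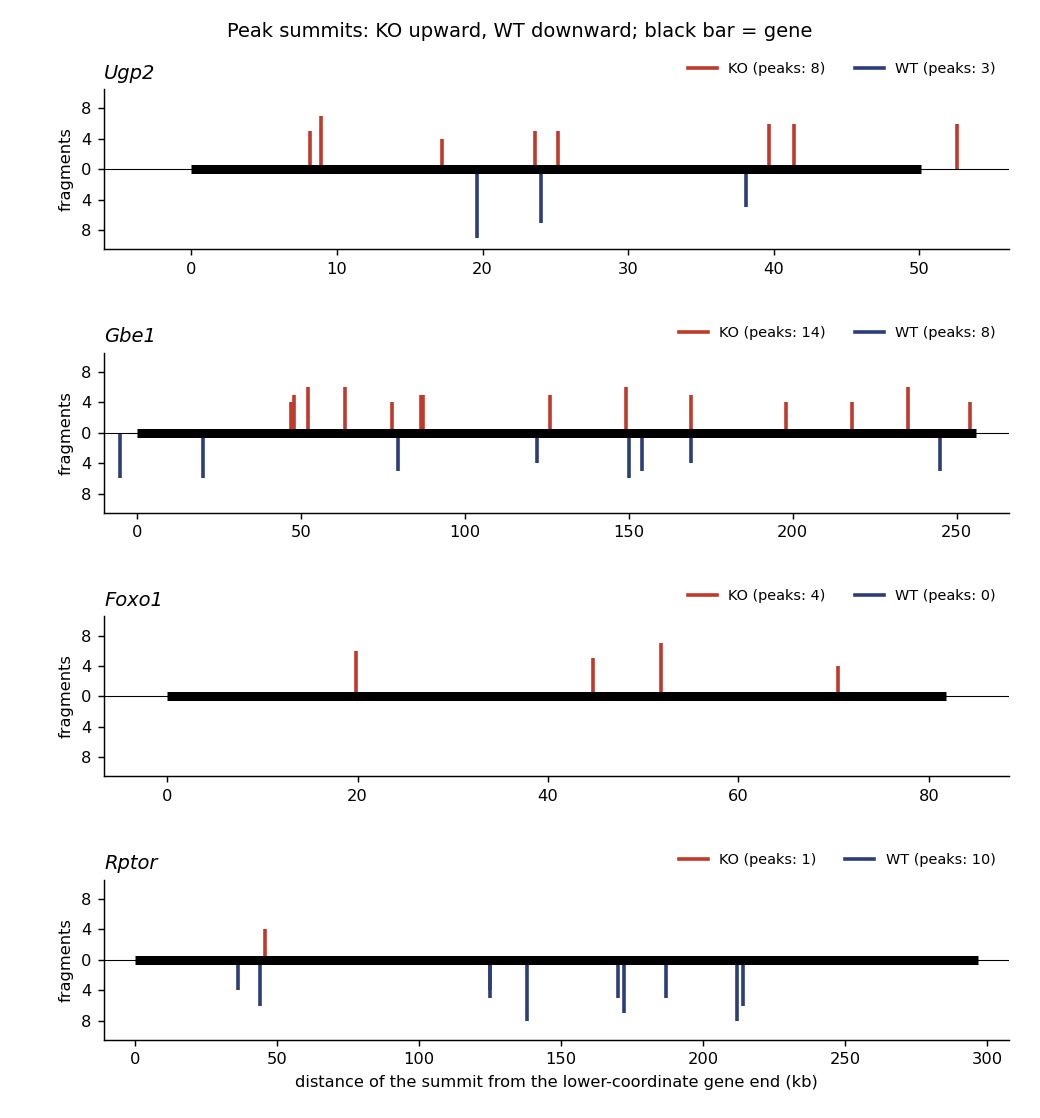
Peak summits along Ugp2, Gbe1, Foxo1 and Rptor, with distance in kb from the lower-coordinate gene end on the x axis and IP fragments at the summit on the y axis, KO upward and WT downward. KO peaks outnumbered WT peaks in Ugp2 (8 KO, 3 WT), Gbe1 (14 KO, 8 WT) and Foxo1 (4 KO, 0 WT), and WT peaks outnumbered KO peaks in Rptor (1 in KO and 10 in WT).

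Signalling genes as a class were at the background. Over 1780 kb of windows they held 35 KO peaks and 39 WT peaks, or 19.7 per Mb in KO (13.7 to 27.4) and 21.9 per Mb in WT (15.6 to 30.0). In KO 11 of the 22 genes had a peak where like length gave 11.8, and in WT 15 where it gave 15.6. Within the class some genes had more KO peaks and others more WT peaks. For each gene with a peak except Rptor, the interval of the KO share included the 43.5% of the whole lists.

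Among the insulin receptor, its adaptors, PI3K and AKT, 5 of 9 genes had a KO peak (55.6%, background 33.3%). A WT peak was found over 7 (77.8%, background 47.7%), with 16 peaks in each list. The background is not matched for length, and the median window of these genes was 68.3 kb, against 27.2 kb over all protein-coding genes. Irs1, the main docking adaptor of the receptor, had 5 KO peaks of 4 to 7 fragments, against 3 WT peaks of 6 fragments each. It was at percentile 96.7 in KO and 82.2 in WT among 957 genes of like length, but with at least 5 fragments it had 2 KO peaks (85.9) and 3 WT peaks (91.8). Irs2, the other hepatic adaptor, had no KO peak and 1 WT peak of 8 fragments. Insr, the receptor gene itself, had 2 KO peaks of 4 fragments and 4 WT peaks of 4, 4, 5 and 7 fragments, at percentiles 50.9 in KO and 62.5 in WT among 464 genes.

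Pik3ca had 4 KO peaks of 4, 4, 5 and 7 fragments, against 2 WT peaks of 6 and 9. Its number was at percentile 91.3 in KO and 55.1 in WT. Pik3r1, which encodes the p85 alpha regulatory subunit, had 4 KO peaks of 4 to 6 fragments and 3 WT peaks of 5 or 6, at percentiles 83.5 in KO and 64.4 in WT. The inhibitory adaptor gene Grb10 had 1 KO peak of 5 fragments, 2773 bp outside the gene, and 2 WT peaks of 5 and 8 fragments. Ptpn1, the phosphatase gene that turns the receptor off, had 1 WT peak of 6 fragments at a fold of 2.86, and no KO peak. Akt1 and Akt2, the kinase genes downstream of PI3K, had no peak in either list.

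The hormone, receptor and binding protein genes were represented by Igf1, the growth factor secreted by liver, since Gcgr (the glucagon receptor) and Igfbp1 had none. Igf1 had 5 KO peaks of 5, 5, 6, 6 and 7 fragments, against 2 WT peaks of 4 and 5. Among 738 genes of like length this was percentile 93.4 in KO and 49.1 in WT. With peaks of at least 5 fragments the numbers were 5 in KO (percentile 98.2) and 1 in WT (percentile 40.8). The KO peak 2100 bp outside Igf1 was inside the noncoding gene Igf1os.

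Among the transcription factors, Foxo1, which drives gluconeogenic genes when insulin is low, had 4 KO peaks of 4, 5, 6 and 7 fragments and no WT peak. All 4 were inside the gene (chromosome 3, 52268337 to 52350109), the nearest to the start site 19.8 kb downstream of it. Foxo1 was at percentile 86.5 in KO and 6.39 in WT among 728 genes of like length, and 26 of these had a KO minus WT difference as large or larger. Creb1, the cyclic AMP responsive factor gene, had 2 KO peaks of 4 and 6 fragments and 3 WT peaks of 5, 5 and 6. A KO summit and a WT summit in Creb1 were 193 bp apart. Crtc2, its glucagon-responsive coactivator gene, had 1 WT peak of 7 fragments and no KO peak, and this peak lay 3878 bp outside the gene and inside Slc39a1.

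Of the AMPK and mTOR genes, Prkaa2 had more KO than WT peaks, and Rptor, Mtor and Tsc2 had fewer. Prkaa2, which encodes the alpha 2 catalytic subunit of AMPK, had 6 KO peaks of 4 to 6 fragments, against 3 WT peaks of 4, 4 and 5. Of its KO peaks 3 lay outside the gene, 2355, 3071 and 4694 bp from its ends. Prkaa2 was at percentile 95.9 in KO and 69.0 in WT among 739 genes of like length, and with at least 5 fragments at 95.4 in KO and 40.1 in WT. A site in Prkaa2 was shared, at chr4:105100787-105100864 in KO with 5 fragments and chr4:105100708-105100855 in WT with 4. Prkaa1, the alpha 1 gene, had no peak.

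Rptor encodes Raptor, the scaffold that defines mTORC1. It had 1 KO peak of 4 fragments, against 10 WT peaks of 4, 4, 5, 5, 5, 6, 6, 7, 8 and 8 fragments. Rptor is the longest gene of the list (chromosome 11, 119602905 to 119899591), and among 183 genes of like length it was at percentile 12.0 in KO and 82.8 in WT. A KO minus WT difference of -9 or lower was found in 8 of the 183. The KO share of its peaks was 9.09% (0.230 to 41.3), an interval that lies below the 43.5% of the whole lists. This interval covers counting error only, and Rptor was singled out after its values were seen.

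Mtor, the kinase gene of the complex, had no KO peak and 1 WT peak of 6 fragments, which lay 4029 bp past the gene and inside Exosc10. Tsc2, whose product restrains mTORC1, had no KO peak and 2 WT peaks of 5 and 8 fragments. Its partner Tsc1 had 1 KO peak and 1 WT peak of 5 fragments each, which did not overlap. Together the 6 AMPK and mTOR genes held 11.9 KO peaks per Mb (5.15 to 23.5) and 25.3 WT peaks per Mb (14.8 to 40.6), and Rptor held 10 of the 17 WT peaks. Without Rptor, signalling genes as a whole had 23.1 KO peaks and 19.7 WT peaks per Mb, a choice made after seeing the data.

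**Figure D4:**
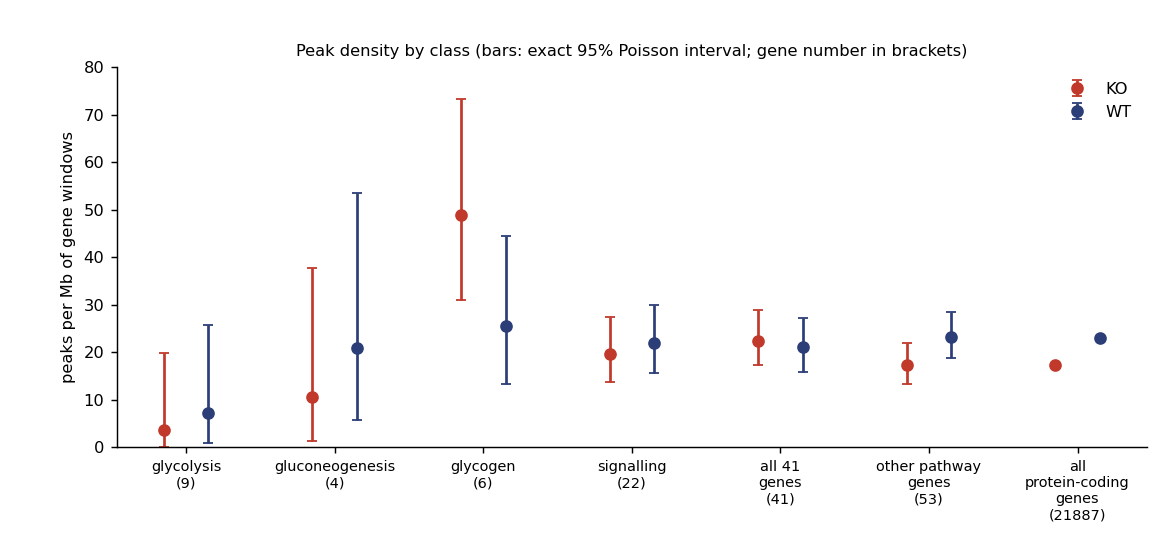
Peaks per Mb of gene windows by class, KO left and WT right in each pair, with exact 95% Poisson intervals that cover counting error only. The KO interval of glycogen genes (31.0 to 73.3) lay above the KO density of all protein-coding genes (17.3), and Gbe1 and Ugp2 held 22 of its 23 peaks.

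Set against WT, KO had more peaks over 10 genes of the list (24.4%, background 15.9%) and fewer over 12 (29.3%, background 34.1%), with equal numbers over Tsc1. KO only were Slc2a2, Ppp1r3b and Foxo1, 3 of 41 (7.32%, background 9.05%), and WT only were 7 of 41 (17.1%, background 23.4%), namely Slc2a1, Gys2, Irs2, Ptpn1, Crtc2, Mtor and Tsc2. Of all 118 peaks over the list, 51.7% were KO peaks (42.3 to 61.0), and the interval includes the 43.5% of the whole lists and the 43.0% of all gene windows. In 6 genes the KO number was at or above percentile 90 for like length, namely Ugp2, Irs1, Prkaa2, Gbe1, Igf1 and Pik3ca, and no WT number was. Over all protein-coding genes 10.1% reached this percentile in KO and 9.17% in WT. With peaks of at least 5 fragments, there were 6 such genes in KO, with Ppp1r3b and Foxo1 in place of Irs1 and Pik3ca, and 3 in WT, namely Slc2a1 (91.5), Ugp2 (93.9) and Irs1 (91.8). At this threshold 8.38% of all genes reached it in KO and 8.57% in WT.

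The sites themselves hardly coincided, over these genes as over the whole lists. Of the KO peaks over the list, 2 of 61 overlapped a WT peak (3.28%, 0.400 to 11.3), and of the WT peaks 2 of 57 overlapped a KO peak (3.51%, 0.428 to 12.1). Over the whole lists these shares were 1.10% of KO peaks and 0.853% of WT peaks, each inside the interval for these genes. The shared sites were those of Gbe1 and Prkaa2, with 4 or 5 fragments each.

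Peaks over the list were low in both libraries. The KO peaks had 4 to 7 fragments with a median of 5, and the WT peaks 4 to 10 with a median of 5. Median folds were 3.83 for KO peaks and 3.55 for WT peaks, close to the 3.83 of the whole KO list and 3.52 of the whole WT list. At least 6 fragments were found in 31.1% of KO peaks (19.9 to 44.3) and 49.1% of WT peaks (35.6 to 62.7), against 29.9% of the whole KO list and 34.3% of the WT list. The WT interval lies above the share of its list. At least 8 fragments were found in 0 of 61 KO peaks (upper bound 5.87%) and in 8 of 57 WT peaks (interval 6.26% to 25.8%), against 3.48% of the KO list and 4.27% of the WT list. The most common background was 0.568 fragments in the KO list and 0.692 in the WT list. A background at this level was found for 75.4% of KO peaks and 50.9% of WT peaks over the genes. Over the whole lists it was found for 85.2% of KO peaks and 66.8% of WT peaks. The interval of the WT share (37.3 to 64.4) lies below that of its list, while the KO interval (62.7 to 85.5) includes the value of its list. The part of the background in the fragment numbers was not tested.

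The surroundings of the genes were counted as well, in the 500 kb on each side of the window. Flanks of Ugp2 held 30 KO peaks and 26 WT peaks, those of Igf1 34 KO and 22 WT, those of Gbe1 27 KO and 34 WT, and those of Foxo1 18 KO and 29 WT. Around Rptor there was 1 KO peak and there were 11 WT peaks, and around Mtor 3 KO peaks and 22 WT peaks. Genes without a KO peak varied in the peaks around them, from 0 KO and 18 WT around Ptpn1 to 25 KO and 38 WT around Gys2. Around Pfkl there were 1 KO and 16 WT peaks, and around Crtc2 16 KO and 24 WT. Over the 23 genes with a peak, the KO share in the gene and in its flanks had a Spearman correlation of 0.63 and a Pearson correlation of 0.61. These are across genes from the same pair of libraries, which differ in depth and fragment length, and are given as a description. Over all 41 genes, peak density in the window and in the flanks had a Spearman correlation of 0.53 in KO and 0.14 in WT.

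**Figure D5:**
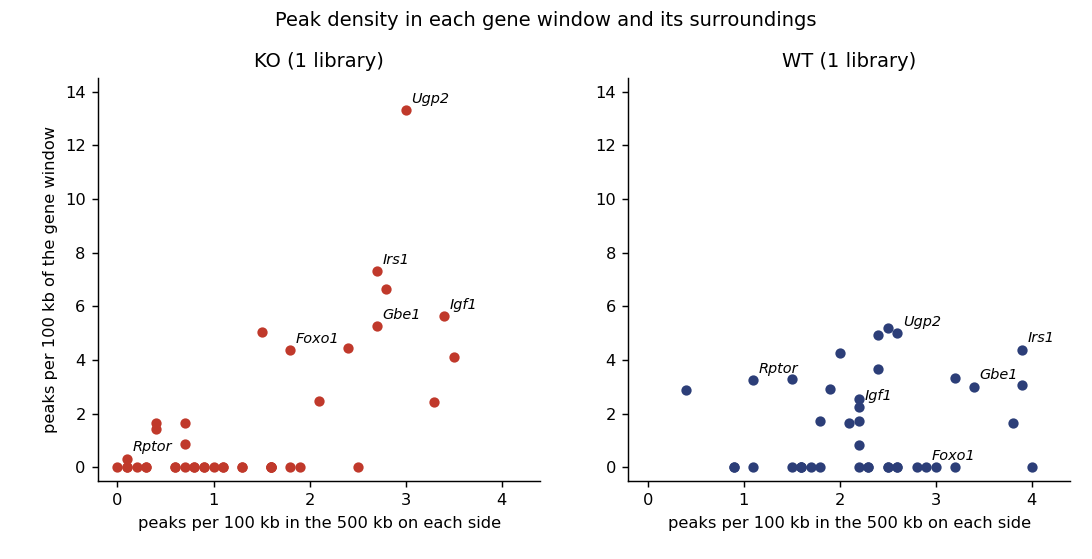
Peaks per 100 kb of the gene window (y axis) against peaks per 100 kb in the 500 kb on each side (x axis), 1 point per gene, KO left and WT right. In KO the genes with dense peaks lay in surroundings with more KO peaks, with Ugp2 highest, and Rptor lay near the origin.

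By class, the flanks of glycolysis genes had a median of 9 KO peaks and 25 WT peaks, those of gluconeogenesis genes 9 KO and 16.5 WT, those of glycogen genes 24.5 KO and 26 WT, and those of signalling genes 8.5 KO and 21.5 WT. Glycogen genes thus lay where KO peaks were most frequent among the 4 classes, and how much of their KO density this accounts for was not tested.

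A further 53 genes of the same pathways outside the list, such as Hk2, Gsk3b, Igf1r and Ppargc1a, were read in the same way. Their windows held 68 KO peaks and 91 WT peaks, or 17.3 per Mb in KO (13.4 to 21.9) and 23.2 per Mb in WT (18.7 to 28.4), at the density of all gene windows. In KO 21 of the 53 had a peak (39.6%, background 33.3%) and in WT 34 (64.2%, background 47.7%). KO numbers were above WT numbers in 10 genes (18.9%, background 15.9%) and below them in 23 (43.4%, background 34.1%). Gsk3b, which encodes a kinase that inactivates glycogen synthase, had 9 KO peaks and 3 WT peaks, and Igf1r, the IGF1 receptor gene, had 1 KO peak and 8 WT peaks. Gsk3b and Igf1r were named after their values were seen.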

How the data were processed

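H3K23pr ChIP-seq peak lists of 1 KO and 1 WT liver IP library were used, each called against its own input. Groups were taken from the sample titles. The submitters' processing notes name cutadapt 1.9.3, Bowtie2 2.2.4 and the mm10 build. Peaks were called per library by MACS2 2.1.1.20160309 in paired-end mode at a p cutoff of 0.001, with up to 2 identical fragments kept, per the file headers.

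The deposited pileup is a signal that counts IP fragments at the summit in whole numbers. The deposited fold is the ratio of pileup to local background, each with 1 added, from which the background was computed back. The deposited p-value and q-value columns are −log10 values. The header says q is not calculated, yet the column holds values. It was used in an alternative only. Peaks were not re-called.

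Genes, promoters and start sites came from RefSeq tables of GRCm38.p6, the assembly of mm10, and exons were not used here. Peaks were assigned to gene windows with pandas 2.3.3 and NumPy 2.4.6, in counting code tested on simulated data. Percentiles are mid-ranks. Exact 95% binomial and Poisson intervals (SciPy 1.17.1) cover counting error only, and the fragments carry no molecular identifiers. The genes, classes and lists were chosen with earlier results of these data known, and the motifs after the promoters were read. All 41 genes are accounted for, and full values are given for the 5 genes with the most peaks and the 5 with the highest peaks in each list, the 3 at the highest percentiles, those with a peak within 2 kb of a gene end or a shared site, and the 2 with the most peaks in each class. Other genes named with full values were added after their values were seen. Of the markers, Tf was not matched. Alternatives covered the window, the peak threshold, the overlap and the length tolerance.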

Additional observations from a re-analysis of the deposited data

How the results depend on the processing

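The window around the gene mattered little: with the gene body alone, 2 kb or 10 kb, every count and share of genes and peaks over the list stayed within 1.5 times its reported value or within its interval. The peak threshold mattered more. With at least 6 fragments, 9 genes had a KO peak, 6 had both, and 19 KO and 28 WT peaks were left, a KO share of 40.4% where the lists had 40.2%. With a caller q of at most 0.05, 9 genes had a KO peak, 6 a WT peak and 2 both, with 18 KO and 10 WT peaks, a KO share of 64.3% where the lists had 68.8%. With the 10000 strongest peaks of each list, 8 genes had a KO peak, 9 a WT peak and 4 both, with 15 KO and 14 WT peaks. That cut fell among peaks tied in caller p in both lists, and ties were broken by fragment number, then by chromosome and position. The KO share over the list, 51.7% as reported, thus lay below or above 50% by threshold, and the share of the whole lists moved with it. How many of all protein-coding genes had a peak was not computed under these thresholds, so the gene counts have no background here. Overlapping KO and WT peaks numbered 0 under each of these thresholds and with at least 5 fragments, and 5 with summits at most 500 bp apart. Overlap over the whole lists was not computed for these alternatives. With at least 5 fragments, 3 WT genes reached percentile 90, where 0 did as reported. Of the 22 alternatives for densities by class, 2 left the reported interval, both KO with at least 5 fragments: 0 per Mb for glycolysis and 12.4 for signalling. The following were chosen after seeing the data. Without Gbe1, Ugp2 or Rptor the KO share was 49.0%, 49.5% and 56.1%, and glycogen KO density without Gbe1 or Ugp2 was 43.9 and 36.5 per Mb. Without both Gbe1 and Ugp2 there were 39 KO peaks and 46 WT peaks over the list. Depth limits all of this, since most peaks rest on 4 or 5 fragments and 1 library per genotype gives no replicate error. No paired analysis was possible because each group holds 1 library.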
